A study of Drosophila melanogaster with 6 samples.

Results

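Copper induction of HMR in cultured Drosophila cells was followed by 376 HMR peaks at autosomal promoters where the uninduced cells had none in their list. These induced-only promoter peaks are the subject here. They are the intervals of the induced list that lie on the major autosomal arms, overlap no uninduced interval by 1 bp or more, and have their centre within 250 bp of an annotated transcript start. They make up 376 of the 1981 induced peaks and of the 3405 peaks of both lists. The same arms hold 434 promoter peaks of the induced list that do overlap an uninduced peak (shared promoter peaks), 145 promoter peaks of the uninduced list with no induced counterpart (uninduced-only promoter peaks) and 352 induced-only peaks away from starts (induced-only distal peaks). In the whole induced list, 936 peaks or 47.2% had no uninduced counterpart. The members were chosen by their absence from the uninduced list and their distance to a start, so neither is a result.

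The cells were SL2 (S2) cells, a line from late D. melanogaster embryos, which make their own HMR and were stably transfected with FLAG-HA-HMR under the copper-inducible pMT promoter. The methods add Myc-LHR as a second transgene, which the labels do not name. Cells of the induced group received 250 μM CuSO4 for 20 to 24 h and cells of the uninduced group received none, and both groups carried the transgene. Chromatin was precipitated with an anti-HMR antibody, with 2 ChIP and 2 input libraries in the induced group and 1 of each in the uninduced group. Each group is represented by 1 list of positions, every peak 200 bp wide, with no height, score or read count. The depth behind a peak is therefore unknown, there is no replicate error, and nothing could be tested over samples. Intervals given below are 95% Wilson intervals for a share and 95% Newcombe intervals for a difference between shares, and they cover counting error only. Copper, transgene expression and the number of libraries changed together and cannot be told apart, and the lists hold nothing by which the identity of the cells could be checked.

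HMR (Hybrid male rescue) is a chromatin protein that, with its partner LHR, causes the death of hybrid males between D. melanogaster and D. simulans. It is known from heterochromatin bound by HP1, from centromeres and telomeres, and from sites along the chromosome arms that include promoters. Promoters of widely expressed Drosophila genes tend to lack a TATA box and to carry other core elements instead. Among these are Motif 1, bound by M1BP, the DNA replication element (DRE), bound by Dref, and Motif 6 and Motif 7, while BEAF-32, an insulator protein found at such promoters, binds CGATA.

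Motif 1 was more frequent in members than in shared promoter peaks, and the following stretches show it in its promoter setting. They are 7 of the first 8 members in list order with an exact match of the Motif 1 core GGTCACACT on either strand, counted on 2L, 3L and 3R, the arms from which sequence is shown. All are Release 6 (dm6) sequence from RefSeq, 5′ to 3′ in the direction of the gene, and capitals mark the match, which reads AGTGTGACC where the element points against the gene.
Wdr62 (chr2L:1884578-1884626, plus strand): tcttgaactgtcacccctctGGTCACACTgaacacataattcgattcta
Diap1 (chr3L:16051031-16051079, minus strand): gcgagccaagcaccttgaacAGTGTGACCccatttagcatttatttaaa
Mbs (chr3L:16051896-16051944, plus strand): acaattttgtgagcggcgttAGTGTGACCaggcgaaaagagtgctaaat
CG18528 (chr3R:24360114-24360142, minus strand): gccattccgcGGTCACACTtaatatcacg
Ufl1 (chr3R:7074409-7074437, minus strand): tgagcagtaaGGTCACACTtgagttttgt
QIL1 (chr3L:17465921-17465969, plus strand): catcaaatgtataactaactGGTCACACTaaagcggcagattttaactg
Gtpx (chr3L:3326206-3326254, plus strand): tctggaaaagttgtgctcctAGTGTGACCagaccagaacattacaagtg
The match points against the gene at Diap1, Mbs and Gtpx and along it at the other genes. It lies upstream of the start at Wdr62, Diap1, Mbs and Gtpx, across the start at QIL1, and in the transcribed leader at CG18528 and Ufl1. Wdr62 encodes a spindle and centrosome protein, Diap1 the main inhibitor of caspases, and Mbs the myosin-binding subunit of myosin phosphatase. Gtpx encodes a glutathione peroxidase and QIL1 a subunit of the mitochondrial inner membrane complex MICOS.

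The DRE, TATCGATA, reads the same on both strands and is shown for comparison. Over all peaks its share could not be separated between members and shared promoter peaks. The first 5 members in list order on 2L, 3L and 3R are given, with the DRE in capitals.
l(3)psg2 (chr3L:5583409-5583456, plus strand): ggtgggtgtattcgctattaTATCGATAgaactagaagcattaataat
CG5674 (chr2L:17963328-17963375, plus strand): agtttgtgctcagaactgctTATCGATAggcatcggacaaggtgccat
Diap1 (chr3L:16051065-16051112, minus strand): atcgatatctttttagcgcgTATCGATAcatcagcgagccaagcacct
Tsp96F (chr3R:25881544-25881591, minus strand): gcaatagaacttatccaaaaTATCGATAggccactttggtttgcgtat
kibra (chr3R:14724280-14724327, minus strand): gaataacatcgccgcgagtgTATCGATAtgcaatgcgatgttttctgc
At Diap1 the DRE lies upstream of the Motif 1 core printed above, and the first bases of the stretch are the end of a further DRE. Each DRE contains CGATA on both strands, so all members with a DRE also count among those with CGATA. kibra encodes an upstream regulator of the Hippo growth pathway, of which Diap1 is a textbook target gene.

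Motif 7, a longer and more degenerate element with no binding protein named here, was the most frequent of the 4 core elements. The first 5 members in list order on 2L, 3L and 3R with a match are given, with the motif in capitals.
wake (chr3R:22639564-22639612, plus strand): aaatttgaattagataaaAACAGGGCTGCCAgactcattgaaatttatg
CG17746 (chr3L:3239655-3239703, minus strand): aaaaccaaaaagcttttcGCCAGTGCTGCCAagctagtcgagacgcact
CG7692 (chr3L:17353001-17353049, plus strand): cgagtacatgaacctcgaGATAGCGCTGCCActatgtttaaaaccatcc
Rabex-5 (chr3L:1295841-1295889, plus strand): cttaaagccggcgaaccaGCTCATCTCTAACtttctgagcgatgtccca
Mbs (chr3L:16051837-16051885, plus strand): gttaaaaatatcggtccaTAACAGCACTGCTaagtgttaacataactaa
The wake, CG17746 and CG7692 matches share the letters GCTGCCA, and the Mbs match lies upstream of that gene's Motif 1 core.

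The member that stands first in the induced list, on line 53, covers the promoter of MtnA, which encodes a metallothionein, a small copper-binding protein that metal ions induce through the factor MTF-1. Its whole interval is printed because metal is the treatment. Capitals mark TGCNCNC, the core of the metal response element bound by MTF-1, on either strand.
MtnA (chr3R:9784373-9784572, minus strand): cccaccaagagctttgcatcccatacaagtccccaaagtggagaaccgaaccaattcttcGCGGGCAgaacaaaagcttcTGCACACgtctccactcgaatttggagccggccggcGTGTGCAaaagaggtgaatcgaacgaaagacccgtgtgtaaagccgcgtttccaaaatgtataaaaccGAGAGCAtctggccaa
The peak centre was 102 bp upstream of the MtnA start, and the opposite gene CG8500 starts 283 bp from that start. With 4 matches of TGCNCNC it had the most of any member, while 291 members had none, 73 had 1, 10 had 2 and 1 (px) had 3. Among windows of the same length at all 15233 autosomal genes, 0.0788% had 4 or more. This element was added after the MtnA peak had been seen, and over all members its share of 22.6% (18.7 to 27.1) was next to 21.0% of shared promoter peaks. The pMT promoter of the transgenes is taken from a metallothionein gene, so reads of the transgene promoter and of the chromosomal promoter cannot be told apart here. The nearest other induced peak lay 6263 bp away at RpS29, also a member, and the nearest uninduced peak 6687 bp away.

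Core promoter elements were counted as exact matches on both strands of the 200 bp peaks. The Motif 1 core occurred in 39 of 376 members (10.4%, 7.68 to 13.9) and in 4.38% of shared promoter peaks, a difference of 5.99 percentage points (2.42 to 9.82). It occurred in 2.07% of uninduced-only promoter peaks and in 1.42% of induced-only distal peaks. Of 200 bp windows at the starts of all autosomal genes, 4.09% held it, and of windows centred 84 bp upstream, where the members' centres typically lie, 3.17% did. The share in members was thus higher than in each of these groups by more than counting error, and shared promoter peaks were close to the level of all promoters. The full Motif 1 consensus, a stricter match, was in 7.45% of members and 3.0% of shared promoter peaks, a difference of 4.45 points (1.40 to 7.79). Within ranges of GC content the core differed by 6.13 points (1.38 to 12.1) among peaks with under 37% GC and by 5.08 points (-0.518 to 10.5) among the others, so in the latter the interval included 0.

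Motif 7 was found in 74 members (19.7%, 16.0 to 24.0), against 13.1% of shared promoter peaks, a difference of 6.55 points (1.45 to 11.7). Its share was 7.59% in uninduced-only promoter peaks and 5.63% in the upstream windows of all autosomal genes. Both classes of induced peaks therefore lay above all promoters for Motif 7, with members highest. The Motif 7 difference between members and shared promoter peaks was 2.13 points (-4.26 to 9.32) among peaks with under 37% GC, and 8.13 points (0.294 to 15.6) among those with more. It was thus not separable from counting error in the peaks of lower GC. Motif 6 was rarer, with 13 members (3.46%, 2.03 to 5.82) against 1.15% of shared promoter peaks, and the difference of 2.31 points (0.224 to 4.76) was barely larger than counting error. The Motif 6 difference was 3.2 points (0.213 to 7.69) under 37% GC and 1.47 points (-1.97 to 4.80) at 37% or more. The DRE was found in 37 members (9.84%, 7.22 to 13.3) and in 7.83% of shared promoter peaks, a difference of 2.01 points whose interval, from -1.91 to 6.07, includes 0. The upstream windows held a DRE in 5.80% of cases over all autosomal genes and in 7.25% over protein-coding ones, so the DRE share of members was not separable from that of protein-coding promoters either.

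Any of these 4 elements was present in 135 members (35.9%, 31.2 to 40.9), in 24.9% of shared and 15.2% of uninduced-only promoter peaks, and in 14.3% of the upstream windows of all autosomal genes. Thus 241 members matched none of the 4 exactly. Members with 2 or more different elements numbered 27 (7.18%, 4.98 to 10.2), against 1.61% of shared promoter peaks, a difference of 5.57 points (2.80 to 8.74). Motif 1 and Motif 7 came together in 10 members, and Motif 1 and the DRE in 2, Diap1 and CG5793. Motif 1 alone or with others was in 39 members, Motif 7 in 74 and the DRE in 37. Whether elements came together more or less often than these counts imply was not tested. The promoter of CG5793, which faces slmb (a ubiquitin ligase subunit) at 88 bp, was the member with 3 of the elements, Motif 1, DRE and Motif 7. Several DREs occurred at Diap1, kibra, Marf1, hppy (a Ste20-type kinase) and mago (an exon junction protein), with 2 each, and hppy also held 3 matches of Motif 7.

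**Figure D1:**
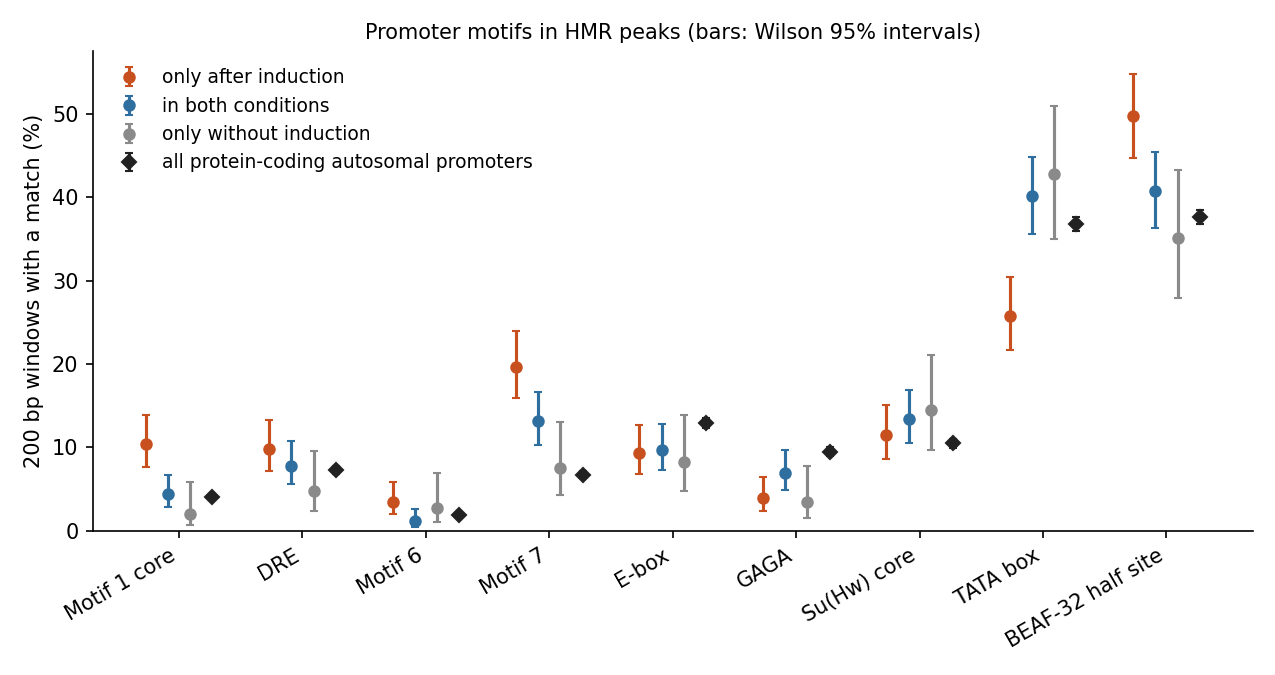
Share of 200 bp windows with an exact match (vertical axis, percent, with Wilson 95% intervals) for 9 motifs in induced-only, shared and uninduced-only autosomal promoter peaks and in windows centred 84 bp upstream of all protein-coding autosomal starts. Induced-only peaks lie highest for Motif 1 (10.4%), Motif 7 (19.7%) and CGATA (49.7%) and lowest for the TATA box (25.8%).

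The TATA box showed the opposite order. TATAAA occurred in 97 members (25.8%, 21.6 to 30.4) and in 40.1% of shared promoter peaks, a difference of -14.3 points (-20.6 to -7.82). Uninduced-only promoter peaks held it in 42.8% of cases and the upstream windows of all autosomal genes in 35.2%, both above the members' interval. Windows centred on the start held it in 28.4% of cases, which is inside that interval. Base composition moved with this. The median GC content was 38.5% in members, 35.5% in shared and 30.5% in uninduced-only promoter peaks, and 38% in the upstream windows. Among peaks with under 37% GC the shares were 41.3% in members and 52.4% in shared promoter peaks (difference -11.1 points, -20.8 to -0.957). Among peaks with 37% GC or more they were 15.5% and 23.4% (-7.88 points, -15.7 to -0.229). The TATA difference was thus smaller within each range of GC than over all peaks but had the same sign. Of the 129 TATAAA matches in members, 64 lay on the strand of the gene and 65 on the other, and their median position was -122 bp from the start. A working TATA box lies close to the start.

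CGATA was found in 187 members (49.7%, 44.7 to 54.8) and in 40.8% of shared promoter peaks, a difference of 8.95 points (2.08 to 15.7). That difference was 2.67 points (-7.23 to 12.6) under 37% GC and 14.0 points (4.26 to 23.3) at 37% or more, so it was separable in the peaks of higher GC alone. Of these members 150 had no DRE, so most of the CGATA count was separate from the DRE. At 2 or more CGATA matches there were 97 of 376 members, next to 88 of 434 shared promoter peaks. Each DRE alone gives 2 matches, so these counts include the 37 members and 34 shared promoter peaks with a DRE. The other motifs with a known protein did not separate members from shared promoter peaks over all peaks. GAGAGA, bound by the GAGA factor, occurred in 3.99% of members and 6.91% of shared peaks (difference -2.92 points, -6.11 to 0.286). TGCATA, the core of the Su(Hw) insulator site, occurred in 11.4% and 13.4% (difference -1.93 points, -6.45 to 2.69). The E-box CAGCTG occurred in 9.31% and 9.68%, a difference of -0.369 points (-4.41 to 3.78). The E-box difference was -6.67 points (-13.6 to -0.0606) at 37% GC or more and 3.6 points (-1.12 to 9.39) under 37% GC.

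Elements that act at the start itself were infrequent. The initiator letters TCAGT within 5 bp of the start were found at 14 members (3.72%, 2.23 to 6.15) and at 4.84% of shared promoter peaks. They were found at 8.62% of all autosomal genes, taken at the outermost start of each gene and not at the start nearest a peak. The TCT letters TTCTTT, searched as a stand-in for the initiator of ribosomal protein genes, lay within 5 bp of the start at 1 member and at 7 shared promoter peaks. The downstream element letters GACGTG were in 3.99% of members and 3.0% of shared promoter peaks, with a difference of 0.994 points (-1.59 to 3.77).

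Within members, the elements had different median positions relative to the start. Only matches inside the peaks were placed, and the peaks are centred upstream, so these medians depend on where the peaks lie. Motif 1 cores had a median position of -15 bp from the nearest start, with the middle of the distribution from -60.5 to 19.5 bp, and 32 of 39 lay between 100 bp upstream and 50 bp downstream. They pointed along the gene in 25 cases and against it in 14. The Motif 1 cores lay a median of 63 bp from the peak centre, so they were near the start and not at the middle of the peak. Motif 7 matches had a median of -47 bp and followed the gene's direction in 57 of 80 cases. DRE matches had a median of -52 bp and Motif 6 matches of -56 bp. Members with a centre within 100 bp of the start held the Motif 1 core in 15% of cases (34 of 227), and those centred farther out in 3.36%, which follows from these positions because a far peak does not reach the start. Searched instead within 100 bases of the start, 49 members (13.0%) had the core.

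**Figure D2:**
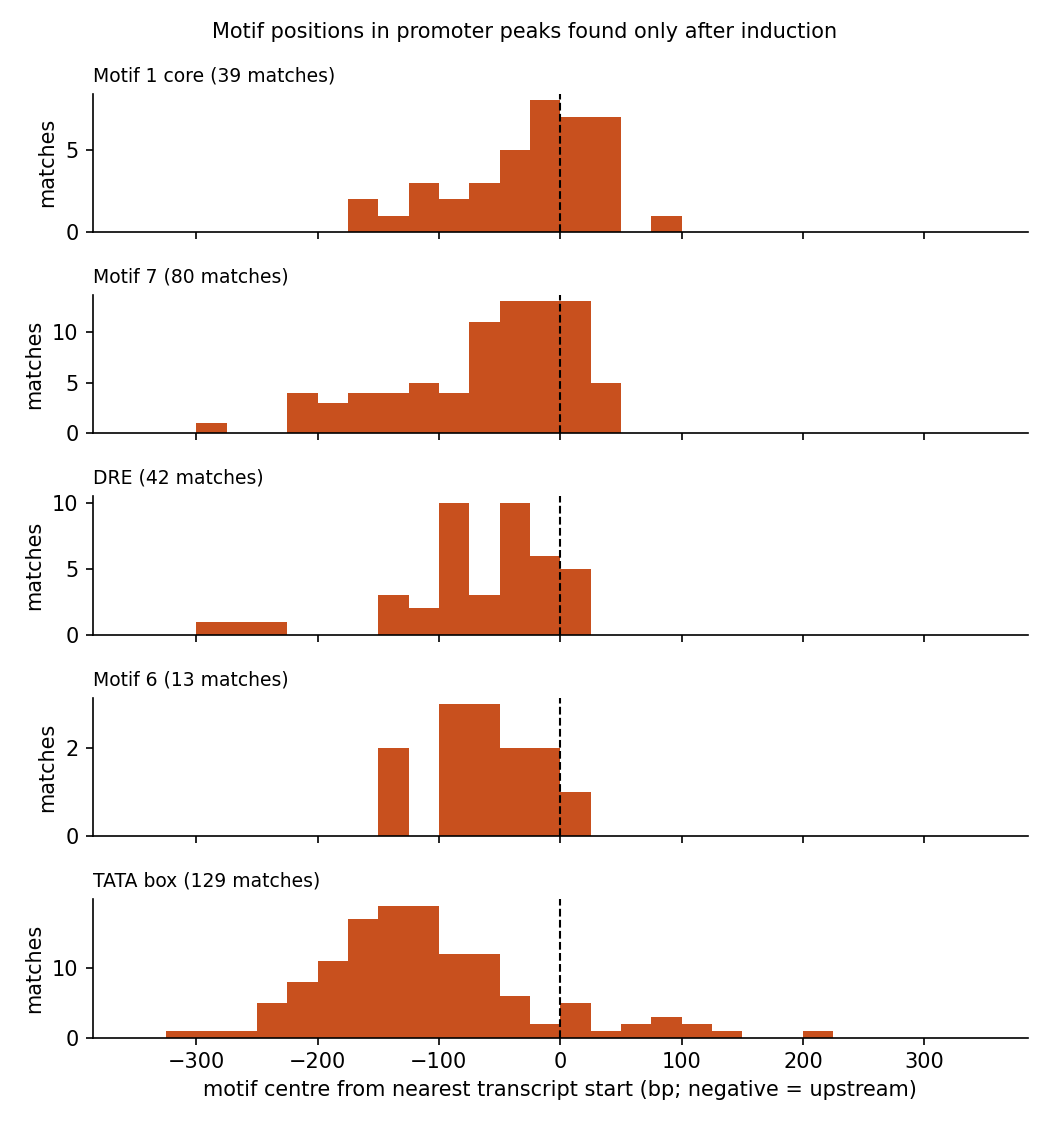
Positions of exact motif matches in the 376 induced-only promoter peaks, as distance in bp of the motif centre from the nearest transcript start (horizontal axis) in bins of 25 bp (matches per bin). Motif 1 cores gather around the start (median -15 bp), Motif 7 and DRE matches lie slightly upstream (-47 and -52 bp), and TATAAA matches lie farther upstream (-122 bp). The peaks are centred upstream, so these positions depend on where the peaks lie.

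The peaks themselves sat upstream of the start. The median distance from peak centre to start was -83.5 bp (middle of the distribution from -125.25 to -41 bp, range -247 to 239 bp), and the median in shared promoter peaks was -83 bp. Uninduced-only promoter peaks were centred farther out, at -122 bp. Centres downstream of the start were found in 40 members (10.6%, 7.91 to 14.2) and in 13.8% of shared promoter peaks, a difference of -3.19 points (-7.68 to 1.40). The placement of members on the promoter could thus not be told from that of shared peaks. Centres lay in intergenic sequence for 276 members, in a 5′ UTR for 44, in an intron for 38, in a non-coding exon for 14, in a 3′ UTR for 3 and in a coding exon for 1 (at asRNA:CR46005). An annotated transposable element was overlapped by 1 member and by 9 shared promoter peaks.

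**Figure D3:**
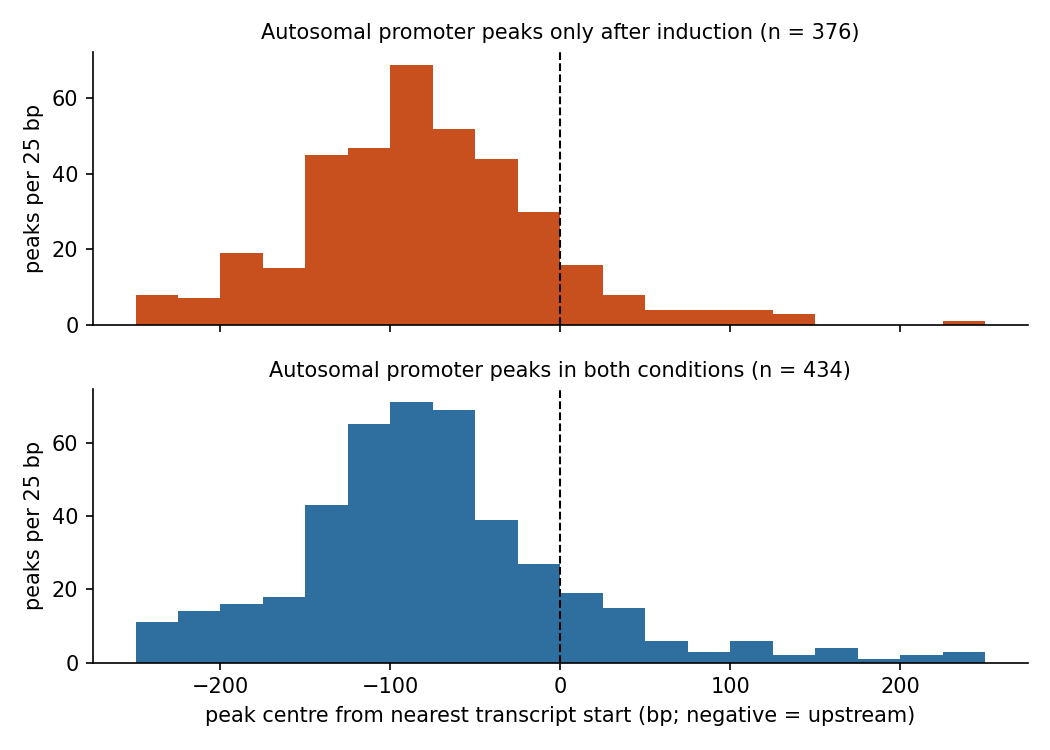
Distance in bp from peak centre to the nearest transcript start (horizontal axis, negative upstream) against peaks per 25 bp, for the 376 induced-only and the 434 shared autosomal promoter peaks. Both distributions have their bulk upstream of the start, with medians of -83.5 and -83 bp.

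Divergent promoters, at which a gene on the opposite strand starts within 1000 bp upstream, made up 182 of the 376 members (48.4%, 43.4 to 53.4). That is above the 34.1% of all autosomal genes and the 38.5% of protein-coding ones, and below the 57.8% of shared promoter peaks (difference -9.43 points, -16.2 to -2.54) and the 66.9% of uninduced-only promoter peaks (-18.5 points, -27.2 to -9.03). Members thus lay between promoters in general and the other classes of promoter peaks. The shares of genes can count both genes of a pair, while each peak counts its nearest start alone. The median gap between the paired starts was 331.5 bp in members and 350 bp in shared promoter peaks, and 158 of the 182 peaks were centred between the starts. Both genes were protein-coding in 171 pairs. The start of the partner was itself within 250 bp of the centre in 99 pairs, so that 1 peak lay near both starts. Peaks are 200 bp wide, so a start within 250 bp of the centre can lie outside the peak.

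The closest pairs were MED10 with PDCD-5 at 46 bp, CG11593 with Rcd5 at 47 bp and CG6707 with CG46387 at 51 bp, all on 3L. MED10 is a subunit of Mediator, the complex that links transcription factors to RNA polymerase II, and its peak held a Motif 1 core. Across the 376 members, 266 had the start of 1 gene within 250 bp, 103 of 2 genes, 5 of 3, 1 of 4 and 1 of 5. The member with 5 lay at PIG-M, an enzyme of GPI anchor synthesis, and NC2alpha, and the member with 4 at CG31650 and CG33995, where several annotated genes share 1 start. At pre-mod(mdg4)-AA, 3 short gene models share the same start.

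The elements and the layout were partly linked. Among divergent promoters the Motif 1 core was in 11.5% of members and 3.59% of shared peaks, a difference of 7.95 points (3.0 to 13.7), and among the rest in 9.28% and 5.46%, a difference of 3.81 points (-1.62 to 9.31). Motif 7 showed the reverse, with 20.3% against 18.3% at divergent promoters and 19.1% against 6.01% elsewhere (difference 13.1 points, 6.45 to 19.7). The DRE was in 8.79% against 9.96% at divergent promoters and in 10.8% against 4.92% elsewhere (difference 5.91 points, 0.380 to 11.6). Whether these differences themselves differ between layouts was not tested.

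The genes at these promoters were mostly protein-coding. The nearest start belonged to a protein-coding gene for 356 members, to a non-coding RNA gene for 18, to snRNA:U1:95Ca, a U1 spliceosomal RNA gene, for 1 and to tRNA:Ala-CGC-1-2 for 1. Counting every start within 250 bp, members touched 496 of 15233 autosomal genes, or 3.26%, of which 468 were protein-coding (4.01% of the 11669 protein-coding genes). Shared promoter peaks touched 583 genes, or 3.83%, and 3 genes had a start near a peak of each kind. The genes were counted in 18 lists of named complexes and pathways, with no correction for their number. Since they hold protein-coding genes, 4.01% is the level to read them against. The lower bound of the interval was above it for the proteasome, cell cycle regulators, Mediator and TFIID, and cytosolic and mitochondrial ribosomal proteins.

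Proteasome subunits, which form the cell's main protein-degrading machine, had a member at 7 of 42 genes (16.7%, 8.32 to 30.6). Shared promoter peaks lay at 4 others (9.52%, 3.77 to 22.1). The genes with a member were Prosalpha3, Prosalpha5, Prosalpha7, Prosbeta1 and Prosbeta2 of the catalytic core, Rpn8 of the regulatory particle, and Rpt6R, a relative of the regulatory ATPase Rpt6. A DRE lay in the peaks of Prosbeta1, Prosalpha5 and Prosalpha3, and the last pair also held Motif 7. No proteasome member held a Motif 1 core, which 10.4% of all members held, so 7 genes are too few to read this absence. Among cell cycle regulators, 4 of 23 genes (17.4%, 6.98 to 37.1) had a member and 2 had a shared peak (8.70%, 2.42 to 26.8). Those with a member were CycB, the mitotic cyclin, polo, a mitotic kinase, BubR1, a spindle checkpoint protein, and fzy, an activator of the anaphase-promoting complex. The CycB peak held a Motif 1 core and 2 matches of Motif 7, the BubR1 peak a DRE, and the polo peak none of the 4 elements.

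Mediator and TFIID subunits, which act at the core promoter itself, had a member at 5 of 34 genes (14.7%, 6.45 to 30.1), namely MED1, MED4, MED10, MED16 and Taf1. A shared peak lay at 4 genes of this list (11.8%, 4.67 to 26.6). The peaks of Taf1 and MED10 held a Motif 1 core. None of the 5 genes of the list that holds M1BP and Dref had a member or a shared peak (0%, 0 to 43.4, for each). Of the 17 insulator and architectural protein genes 1 had a member, pita. Of the 22 autosomal genes for LHR, HP1 and other heterochromatin proteins 1 did, egg, a histone H3 lysine methyltransferase. No nucleoporin gene out of 19 (0%, 0 to 16.8) and no centromere or kinetochore gene out of 11 (0%, 0 to 25.9) had a member. In lists this small an absence cannot be told from the 4.01% level, which these intervals include.

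Cytosolic ribosomal protein genes had a member at 9 of 77 (11.7%, 6.27 to 20.7), and 24 had a shared peak (31.2%, 21.9 to 42.2). The share with a member was above the level of all protein-coding genes, and the share with a shared peak was higher still. Genes with a member were RpS20, RpS28a, RpS29, RpS30, RpL19, RpL23, RpL34b, RpL37A and RpLP2. RpL19 and RpL37A held a Motif 1 core and RpS29 and RpS30 a DRE. Mitochondrial ribosomal protein genes had a member at 6 of 62 (9.68%, 4.51 to 19.5) and a shared peak at 2 (3.23%), and the mRpS16 peak held a Motif 1 core. All of these 6 genes, mRpL1, mRpL39, mRpL47, mRpS16, mRpS17 and mRpS21, lay at divergent promoters. The mRpL39 peak was also the Prosbeta2 peak, with 285 bp between the starts, and the mRpS21 peak was also that of the chaperone gene Droj2, at 297 bp.

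**Figure D4:**
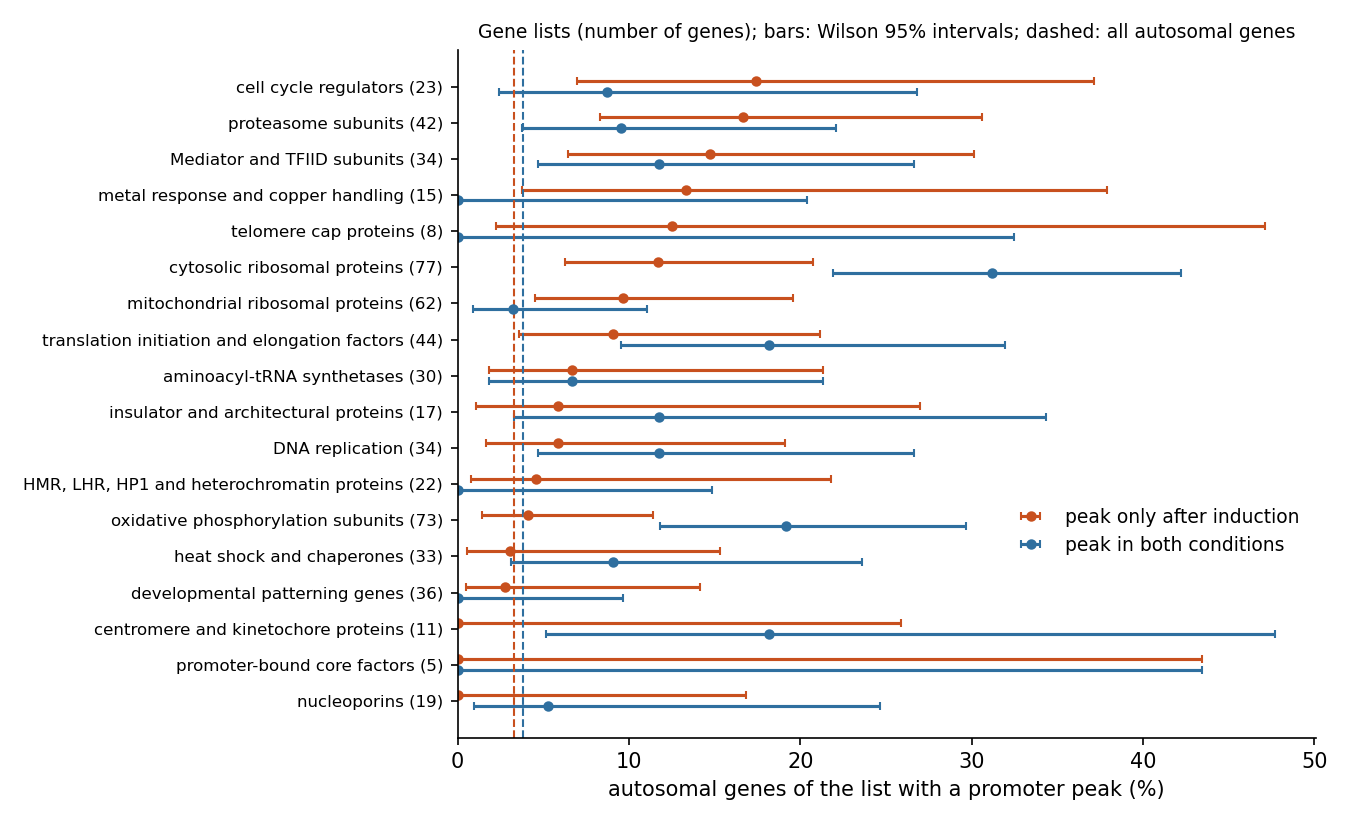
Percent of the autosomal genes of each list with a start within 250 bp of an induced-only or a shared promoter peak (horizontal axis, Wilson 95% intervals, number of genes in brackets), with dashed lines at the levels of all autosomal genes, 3.26% and 3.83%. Proteasome (16.7%) and cell cycle genes (17.4%) lie right of the line for induced-only peaks, and at 9.52% and 8.70% also for shared peaks. Cytosolic ribosomal (31.2%) and oxidative phosphorylation genes (19.2%) lie right of the line for shared peaks, and the ribosomal genes (11.7%) also for induced-only peaks.

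Oxidative phosphorylation genes had a member at 3 of 73 (4.11%, 1.41 to 11.4), close to the share of all genes, and a shared peak at 14 (19.2%). The members were at RFeSP, the iron-sulfur subunit of respiratory complex III, UQCR-Q of the same complex, and ATPsynF. Translation factors had 4 of 44 (9.09%, 3.59 to 21.2), eIF4A, eIF4E1, eIF3d1 and eEF1alpha2, and shared peaks covered 8. The eIF4E1 peak, at the gene for the cap-binding protein, was centred 46 bp downstream of the start. DNA replication genes had a member at 2 of 34, PCNA (the sliding clamp, with a DRE and Motif 7 in its peak) and Orc4. Aminoacyl-tRNA synthetase genes had 2 of 30, GlnRS with a Motif 1 core and LeuRS-m. The metal response list had 2 of 15 (13.3%, 3.74 to 37.9), MtnA and the copper chaperone gene Atox1, whose peak held 1 match of TGCNCNC, and chaperones had 1 of 33. Developmental patterning genes, which tend to be silent in a given line, had 1 of 36, the anterior determinant bcd, with a peak centred 191 bp upstream of its start. The telomere cap list had 1 of 8, eff, a ubiquitin-conjugating enzyme gene.

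The members standing first in the induced list were, after MtnA, Rab32 on line 118, CkIIalpha-i3 on line 188, Galphai on line 208, lncRNA:CR44284 on line 242, bdg on line 263, RFeSP on line 264, asRNA:CR46005 on line 278, crp on line 311 and l(3)psg2 on line 321. Rab32 encodes a small GTPase of pigment granule traffic, Galphai an inhibitory G protein subunit and crp a bHLH factor. None of these 10 held a Motif 1 core, and bdg and l(3)psg2 held a DRE. With 10.4% of all members holding the core, 10 peaks are too few to read its absence. Rab32 and lncRNA:CR44284 were neighbours, 3751 bp apart on 2R, both with peaks of low GC content (28% and 24%).

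Members stood lower in the induced list than shared promoter peaks, with a median line of 1199 (53 to 1940) against 623.5 (5 to 1960). Members were 3.30% of the autosomal promoter peaks in the first of 10 equal parts of the list and 75% in the last. What the line order stands for is not given in the sources used here. Differences from shared promoter peaks were therefore also taken within parts of the list. Within the first 990 lines the Motif 1 core was in 8 of 125 members (6.40%) and 5.61% of shared promoter peaks, a difference of 0.789 points (-3.67 to 6.88). From line 991 on it was in 31 of 251 members (12.4%) and 1.53% of shared promoter peaks, a difference of 10.8 points (5.60 to 15.6). The Motif 1 difference was thus separable from counting error in the later lines alone. Motif 7 showed the reverse, with 17.6% against 9.90% in the first 990 lines (7.70 points, 0.819 to 15.8) and 20.7% against 20.6% later (0.106 points, -8.85 to 8.23). CGATA likewise differed by 12.0 points (1.71 to 22.1) in the first 990 lines and by 1.71 points (-8.76 to 12.1) after them. Its share of members hardly moved, at 49.6% and 49.8%, and neither did the DRE share, at 10.4% and 9.56%. The TATA box was lower in members in both parts, by -17.0 points (-25.4 to -7.41) and -15.6 points (-25.6 to -5.56). The divergent share was lower by -5.09 points (-15.3 to 5.28) in the first 990 lines and by -23.1 points (-32.4 to -12.9) after them. Whether a difference itself differed between the parts was not tested, and this division, like that by GC content, was chosen after the lists had been seen.

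**Figure D5:**
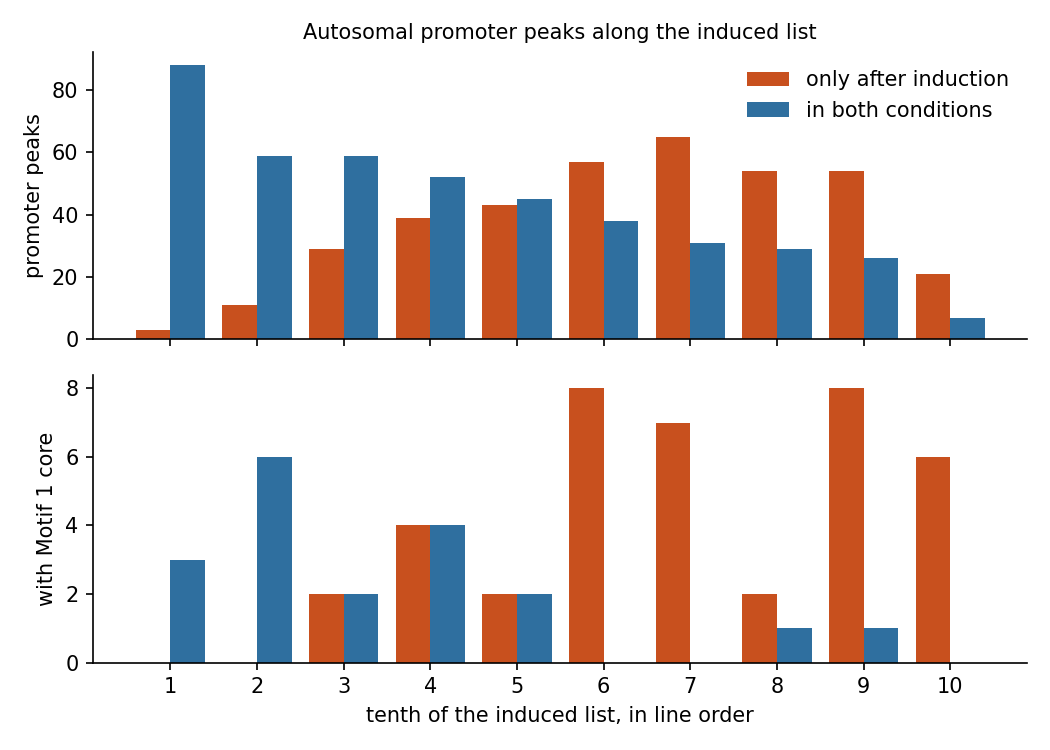
Number of induced-only and shared autosomal promoter peaks (upper panel) and of those with a Motif 1 core (lower panel) in 10 equal parts of the induced list in line order (horizontal axis). Induced-only peaks go from 3 in part 1 to 65 in part 7, and from part 6 on 31 of them and 2 shared peaks hold the core.

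All 4 major arms contributed, with 63 members on 2L, 108 on 2R, 86 on 3L and 119 on 3R. Members were 38.9% (31.7 to 46.6) of the induced promoter peaks on 2L and 49.6% (43.3 to 55.9) on 3R, and the intervals overlap. Per megabase the arms ranged from 2.68 on 2L to 4.27 on 2R. The share of an arm's genes with a member was lowest on 2L, at 2.35%, and highest on 2R, at 3.81%. The Motif 1 core difference between members and shared promoter peaks was 12.9 points (5.58 to 21.8) on 3L. It was 6.64 points (-2.32 to 17.5) on 2L, 2.30 points (-4.77 to 9.72) on 2R and 4.27 points (-2.14 to 11.1) on 3R. By arm it was thus separable from counting error on 3L alone, with the same sign on every arm.

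The median gap from a member to the nearest uninduced peak was 24189.5 bp, and the largest, at FAM21, was 392387 bp. That there is a gap follows from the rule, and its size was not compared with that of other promoters. A gap of 1000 bp or less was found for 24 members. The closest were those at Daxx, 17 bp, CG8441, 36 bp, and Asx, 39 bp, and on the other side of the rule the promoter peaks of SCCRO3, CG3764 and spg counted as shared with overlaps of 10, 12 and 43 bp. At the distance limit, the members at Fancm, Polr2E and Eip63E were centred at -247, -244 and -241 bp, and induced-only peaks at CG10418, Orc2 and Zmynd8 at -253, -253 and -255 bp fell outside.

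Neighbouring members less than 1000 bp apart occurred as 2 pairs. CG6051 and Men-b, which encodes a malic enzyme, had peaks 264 bp apart on 3R, and a shared peak lay within CG6051, 911 bp downstream of its start. Diap1 and Mbs start 925 bp apart on opposite strands of 3L, and each had its own member with a Motif 1 core, 603 bp from the other. A shared peak lay 401 bp beyond the Mbs member, 521 bp into Mbs, with its uninduced counterpart at 405 bp. At both loci the induced list therefore added promoter peaks beside a peak that was present in both lists.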

How the data were processed

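The HMR ChIP-seq data of SL2 cells analysed here are 2 deposited peak lists, and the reads were not used here. Per the labels and methods, the authors mapped 50 bp reads to dm6. Their tools were Bowtie2 2.2.9 for mapping, SAMtools 1.3.1 for filtering and HOMER 4.9 for peaks, which had to reach 2-fold enrichment against input. The deposited values are peak positions (chromosome, start, end) without a count, score or signal. Which condition a list belongs to was inferred from how the lists are named, and pooling of the induced libraries is not stated in the sources used here.

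Members were found in Python 3.11.15 (numpy 2.4.6, matplotlib 3.10.9), with starts of 35612 transcripts of Ensembl release 115, transposable elements left out, and Release 6 sequence from RefSeq. For each peak the nearest start was taken. For all autosomal genes the outermost start of each gene was taken. A gene counted as touched when any of its starts was within 250 bp of a peak centre. Motif matches were exact on both strands, 14 motifs in all. Motif 6, Motif 7 and the full Motif 1 consensus are degenerate and are given by name. No p-value was computed, because peaks are not replicates. The code was tested on simulated data.

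The members and gene lists were chosen with earlier results of these data known. Named genes were the first 10 members in line order, genes of the 18 lists, the first 8 with a Motif 1 core on 2L, 3L and 3R (7 are printed), those nearest the rule's limits, the closest divergent pairs, those with most genes, MtnA, those with several elements and neighbouring pairs. Members at px, FAM21, snRNA:U1:95Ca and tRNA:Ala-CGC-1-2, and those shown for Motif 7 and the DRE, were named after their values were seen. Alternatives changed the overlap, the start distance, the transcripts, the motif match and the part of the list.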

Additional observations from a re-analysis of the deposited data

How the results depend on the processing

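Of 40 alternatives, 31 left the number of members within 1.5 times or the share within its interval. The number of members was 227 with starts within 100 bp, and 352 to 452 under the others. The Motif 1 core share was 15% with starts within 100 bp, 6.40% in the first 990 lines of the list, 26.6% with 1 mismatch allowed and 7.45% for the full consensus. The DRE share was 29.3% with 1 mismatch. The divergent share was 41.6% with starts within 500 bp and 31.9% with starts at most 500 bp apart. The share centred downstream was 18.4% from the most upstream start of each gene. The matches with 1 mismatch were not compared with other peaks. No paired analysis was possible because the peak calls analysed here are a single list for each group. Leaving out a replicate was not run for the same reason. Without read counts, absence from a list is not absence of binding. Line order and GC content moved with class. Dividing by either left some motif differences within counting error, and dividing by GC brought others beyond it. The values by GC are given with each motif so divided.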
